A study of Rattus norvegicus with 2 samples.

Results

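The genes described here are 9 acid-base transport genes of intercalated cells, the acid- and base-secreting cells of the renal collecting duct. They are the rows of the deposited gene table named Atp6v1b1, Atp6v0a4, Atp6v1g3, Atp6v0d2, Slc4a1, Slc4a9, Slc26a4, Slc26a7 and Foxi1, which are 9 of 29516 genes. The kidneys came from F344 rats, an inbred strain prone to kidney disease in old age. One group ate a 14% soy diet and the other a casein control diet, in both cases for 4 months from 16 months of age, and the tissue was taken at 20 months. The labels give 1 library of kidney RNA per diet, give no sex, and do not say which part of the kidney was used or whether a library pooled several rats.

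Intercalated cells keep blood pH constant by moving protons and bicarbonate in opposite directions. A carbonic anhydrase inside the cell makes both ions from carbon dioxide and water. Type A cells pump protons into the urine with a vacuolar proton ATPase on the urinary side and return bicarbonate to the blood through the anion exchanger encoded by Slc4a1. Type B cells secrete bicarbonate into the urine through pendrin, encoded by Slc26a4. The transcription factor Foxi1 is required in mice for intercalated cells to acquire these transporters.

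Foxi1 is a forkhead factor, and work in other species places forkhead sites in the control regions of several of these genes, so the promoters of the 9 genes were read for forkhead letters. RefSeq promoters on build GRCr8, from 250 bases before to 50 after the gene start, were matched for 6 of the 9 genes, and Atp6v0d2, Slc4a1 and Slc26a7 were not matched. The forkhead word TGTTTAC, searched on both strands, was found in 1 of the 6, in Atp6v1b1, and in 3.78% of 33469 promoters of the same length. TGTTTGC was found in 0 of the 6 and in 4.88% of all promoters. The shorter forkhead core, counted as TATTTA, as the word TATTTG, as the word TGTTTA or as the word TGTTTG, was found in 3 of the 6 (Atp6v1b1, Atp6v1g3 and Slc4a9) and in 43.5% of all promoters. The stretches around the matches are given on the strand of the gene, with each match in capitals. CAAACA is TGTTTG on the opposite strand.
Atp6v1b1, chr4:117781331-117781377, plus strand: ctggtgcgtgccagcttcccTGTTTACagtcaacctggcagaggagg
Atp6v1g3, chr13:52362082-52362140, plus strand: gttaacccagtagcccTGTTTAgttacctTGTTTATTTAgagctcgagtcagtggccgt
Atp6v1g3, chr13:52362220-52362265, plus strand: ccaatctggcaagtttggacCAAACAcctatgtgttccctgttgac
Slc4a9, chr18:28402550-28402604, plus strand: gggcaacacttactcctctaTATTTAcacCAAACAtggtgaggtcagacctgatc
Slc4a9, chr18:28402640-28402685, plus strand: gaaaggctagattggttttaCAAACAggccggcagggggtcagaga
The TGTTTAC match of Atp6v1b1, which contains a TGTTTA core, begins 93 bases before the gene start. In Atp6v1g3 the cores begin 234, 221, 217 and 92 bases before the start, and those at 221 and 217 overlap. In Slc4a9 they begin 223, 214 and 133 bases before the start. These are matches of letters only and say nothing about binding.

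The values are FPKM, fragments scaled to the length of the transcript and to the size of the library, so levels can be set side by side between genes. With 1 library per diet there is no spread between replicates, no test across samples could be run, and no difference below has a replicate check. Differences are given as ratios of FPKM and as log2((soy FPKM + 0.1)/(casein FPKM + 0.1)). The number of fragments is not given. Where few whole fragments make up a value, equal numbers of them give a fixed ratio. Among 2236 genes above 0 under both diets with status NOTEST in the authors' deposited table, the soy over casein ratio piled up at 1.09, with 285 genes in a log2 bin of width 0.05 against 23 and 31 in the bins on either side. If that peak holds equal numbers of fragments, a gene with the same number in both libraries reads 1.09-fold higher with soy. All 9 genes had status OK in the authors' deposited table, and none overlapped another row of that table. In its coordinates, for which no build is named, Slc4a1 spans chromosome 10 from 91454827 to 91471072 and Slc26a7 chromosome 5 from 28899556 to 29035178.

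Most of the 9 genes had nearly the same level under both diets, and the 2 that stood out were anion exchangers of type A cells. Slc26a7 was 1.85-fold higher and Slc4a1 1.55-fold higher with soy. Altogether 2 of 9 genes were higher by 1.5-fold or more and 0 of 9 were lower by that much. Among the 14077 genes that averaged 1 FPKM or more over the diets, 3.43% were that much higher and 8.08% that much lower. By any amount, 8 of 9 genes were higher with soy, and 52.8% of all genes were. When the median of principal cell genes was subtracted, 5 of 9 genes and 26.5% of all genes were higher, or 2 of 9 genes and 9.84% of all genes when rows without status OK were also left out. The median log2 difference of the 9 genes was 0.14, against 0.01 for all genes, and 5 of the 9 lay inside the middle 50% of all genes. Both libraries are bulk tissue, in which a change in the number of intercalated cells cannot be told apart from a change in RNA per cell.

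**Figure D1:**
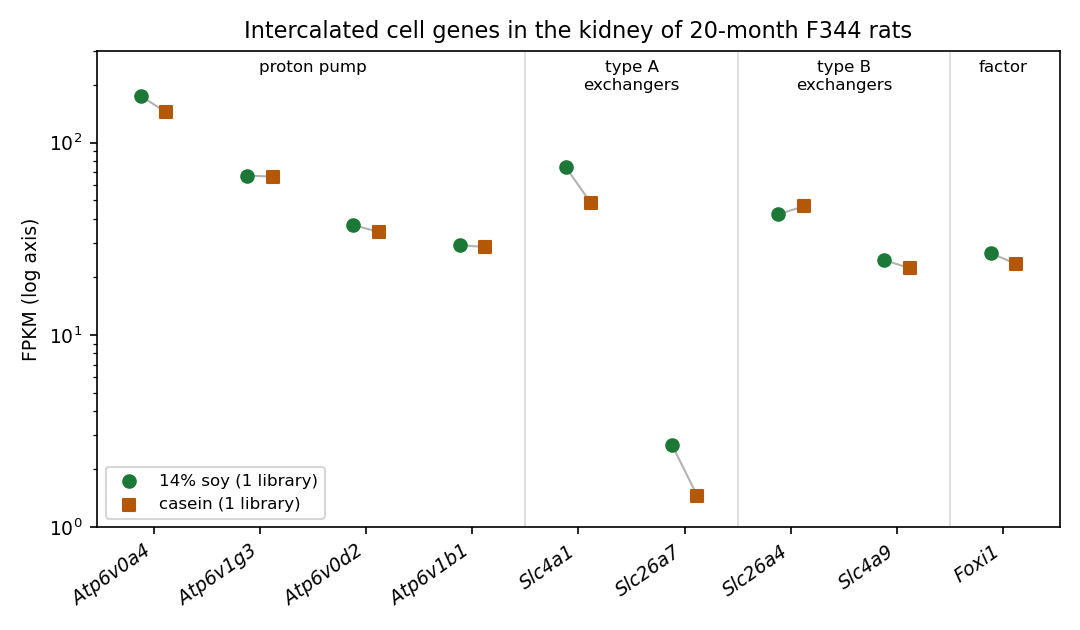
FPKM of the 9 intercalated cell genes on a log axis, with 1 point per library, circles for 14% soy and squares for casein, grouped by role. Slc4a1 and Slc26a7 are the pairs with the steepest lines, at 1.55-fold and 1.85-fold higher with soy, and the other 7 pairs lie within 1.5-fold.

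The proton pump has 4 members here, each the form of a subunit that intercalated cells use. Atp6v1b1, which encodes the kidney form of the nucleotide-binding B subunit, had 29.2 FPKM with soy and 28.7 FPKM with casein. Atp6v1g3, a form of the stalk subunit G, had 67.3 FPKM with soy and 66.5 FPKM with casein. The ratios of these genes were 1.02 and 1.01. Their log2 differences were 0.03 and 0.02, close to the median of 0.01 for all genes. Atp6v0d2, a form of the d subunit of the membrane sector that is also made by osteoclasts and macrophages, had 37.3 FPKM with soy and 34.2 FPKM with casein, a ratio of 1.09. Atp6v0a4, which encodes the a4 form of the proton-conducting subunit and is also made in proximal tubule cells, was the most abundant of the 9 genes, at 174 FPKM with soy and 143 FPKM with casein. Its ratio of 1.22 was the largest of the 4, and 11.8% of all genes had a higher log2 difference. The 4 genes summed to 308 FPKM with soy and 273 FPKM with casein, a difference carried mostly by Atp6v0a4.

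The other subunits of the pump, which most cells use to acidify lysosomes, also lay within 1.5-fold. Of 21 listed genes, 17 were found and 16 averaged 1 FPKM or more. Of these 16, 13 were higher and 3 lower with soy, with a median log2 difference of 0.06. The most abundant was Atp6v0c, which encodes the proteolipid of the membrane ring, at 639.9 FPKM with soy and 637.6 FPKM with casein. The largest difference of the 16 was that of Tcirg1, which encodes the a3 form found in osteoclasts and immune cells, at 8.37 FPKM with soy and 12.1 FPKM with casein (log2 difference -0.53).

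In the 3 of 5 planned pairs that could be measured, the share of the intercalated cell form was also nearly the same under both diets. Atp6v1b1 made up 17.7% of the summed FPKM of Atp6v1b1 and the widespread Atp6v1b2 with soy, and 16.7% with casein. Atp6v1g3 made up 24.2% of its sum with Atp6v1g1 with soy, and 24.5% with casein. Atp6v0d2 made up 13.3% of its sum with Atp6v0d1 with soy, and 13.8% with casein. The shares moved by 0.99, -0.24 and -0.50 percentage points, soy minus casein. The pairs of Atp6v0a4 with Atp6v0a1 and of Atp6v1c2 with Atp6v1c1 were not analysed here. Neither Atp6v0a1 nor Atp6v1c2 was found by symbol or RefSeq synonym.

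**Figure D2:**
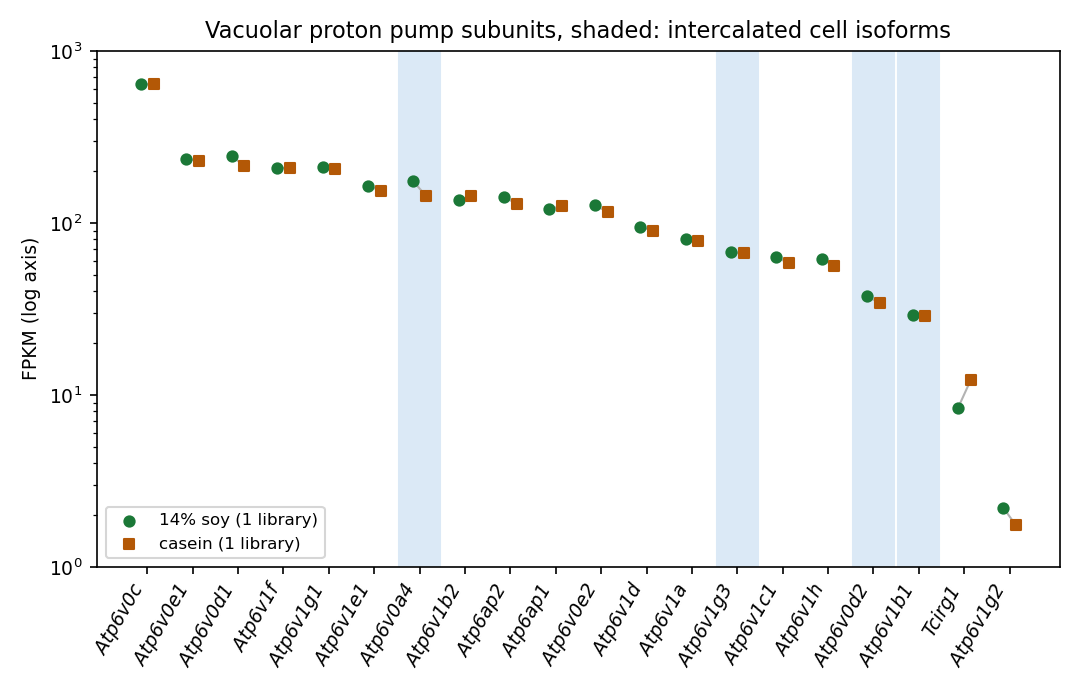
FPKM of vacuolar proton pump subunits that averaged 1 FPKM or more, on a log axis and ordered by mean, with circles for 14% soy and squares for casein, 1 library each. The 4 shaded genes are the intercalated cell forms, of which Atp6v0a4 lies among the abundant subunits and the other 3 lie lower, and no pair is 1.5-fold apart.

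The exchangers of type A cells had the largest differences of the 9 genes. Slc4a1, which encodes the chloride-bicarbonate exchanger of the blood side of type A cells and the band 3 protein of red blood cells, had 74.5 FPKM with soy and 48.2 FPKM with casein. Its log2 difference was 0.63, and 3.05% of all genes had a higher one. Among genes with a mean of 20 to 200 FPKM, to which it belongs, 2.32% were higher by 1.5-fold or more and 2.97% lower by as much. Slc26a7, which encodes a chloride transporter of the blood side of type A cells in the outer medulla, was the least abundant of the 9, at 2.68 FPKM with soy and 1.45 FPKM with casein. Its log2 difference was 0.84, and 1.88% of all genes had a higher one. At this low level large ratios were more common, since 5.97% of genes between 1 and 5 FPKM on average were higher by 1.5-fold or more with soy. In the authors' deposited table Slc4a1 has p = 0.012 and q = 0.351, and Slc26a7 p = 0.0467 and q = 0.722. That table marks 0 of the 9 genes as different and 0.848% of the rows with status OK, and the other 7 genes have q = 0.999991.

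Red blood cells also make Slc4a1, so red cell genes were set beside it. Of 15 listed names, 10 were found and 5 averaged 1 FPKM or more, and these 5 summed to 1227 FPKM with soy and 1885 FPKM with casein. The globin gene Hbb had 497 FPKM with soy and 753 FPKM with casein, so the globin genes were lower with soy where Slc4a1 was higher. The ratio of Slc4a1 to Hbb was 0.150 with soy and 0.0640 with casein. Epb42, a membrane skeleton gene largely restricted to red cells, was near 0, at 0.135 FPKM with soy and 0.0842 FPKM with casein. Unlike the ratio to Hbb, the ratio of Slc4a1 to Epb42 was similar under both diets, at 553 with soy and 573 with casein. Sptb, the spectrin beta gene, was the 1 measured gene of this list that was higher, at 2.87 FPKM with soy and 1.92 FPKM with casein. Whether red blood cells had a part in the Slc4a1 difference was not tested.

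The exchangers of type B cells differed little between the diets. Slc26a4, which encodes the pendrin exchanger of the urinary side, had 42.4 FPKM with soy and 46.5 FPKM with casein. It was the 1 gene of the 9 with a lower value under soy, with a log2 difference of -0.14, and 26.0% of all genes had a lower one. Slc4a9, which encodes the anion exchanger AE4 of the blood side of type B cells in mice, had 24.5 FPKM with soy and 22.2 FPKM with casein, a ratio of 1.10. Together these genes summed to 66.8 FPKM with soy and 68.8 FPKM with casein. Slc4a1 and Slc26a7 summed to 77.2 FPKM with soy and 49.7 FPKM with casein. The ratio of Slc4a1 to Slc26a4 was accordingly 1.76 with soy and 1.04 with casein, and whether that shift exceeds the spread between kidneys could not be tested. Pendrin is also made in the thyroid, whose marker Tg had 0.217 FPKM with soy and 0.199 FPKM with casein.

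Foxi1 had 26.6 FPKM with soy and 23.4 FPKM with casein, a ratio of 1.14 and a log2 difference of 0.19. Relative to Foxi1, Slc4a1 stood at 2.80 with soy and 2.06 with casein, Slc26a4 at 1.59 with soy and 1.99 with casein, and Atp6v1b1 at 1.10 with soy and 1.23 with casein. The order of the 9 genes by level was nearly the same under both diets. With soy it ran from Atp6v0a4 through Slc4a1, Atp6v1g3, Slc26a4, Atp6v0d2, Atp6v1b1, Foxi1 and Slc4a9 to Slc26a7. With casein, Atp6v1g3 stood above Slc4a1 and the rest of the order was the same.

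Other genes of intercalated cells, taken from a list of 22 names of which 20 averaged 1 FPKM or more, had a median log2 difference of 0.14 and a mean of 0.06, beside a median of 0.14 and a mean of 0.23 for the 9 genes. Of these 20 genes, 13 were higher and 7 lower with soy, 0 of them higher by 1.5-fold or more and 1 lower by as much. That 1 gene was Car15, a membrane-bound carbonic anhydrase, at 52.9 FPKM with soy and 97.2 FPKM with casein, and the authors' deposited table marks it with q = 0.0296. The most abundant was Car2, the cytosolic carbonic anhydrase that supplies the protons and bicarbonate, at 419 FPKM with soy and 349 FPKM with casein. Aqp6, the vesicle water channel of type A cells, had the highest log2 difference of the 20, 0.44, at 121 FPKM with soy and 89.2 FPKM with casein. In the same list Kit had 6.04 FPKM with soy and 6.80 FPKM with casein, and Dmrt2 10.5 FPKM with soy and 9.22 FPKM with casein. Whether genes of this list differed by the type of intercalated cell was not tested. The gene Rhcg, which encodes an ammonia channel, had 105 FPKM with soy and 91.9 FPKM with casein, and its relative Rhbg had 69.5 FPKM with soy and 59.0 FPKM with casein. Oxgr1, a receptor of type B cells in mice, had 6.89 FPKM with soy and 7.31 FPKM with casein, and Atp4a, the gastric proton-potassium pump, was near 0, at 0.0419 FPKM with soy and 0.0389 FPKM with casein.

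Acid-base transporters of other nephron segments went both ways. Of 13 measured genes, 6 were higher and 7 lower with soy, with a median log2 difference of -0.04 and a mean of 0.01, of opposite sign, and 1 was at least 1.5-fold lower. It was Slc4a4, the sodium-bicarbonate cotransporter that returns bicarbonate to the blood in the proximal tubule, at 13.2 FPKM with soy and 25.7 FPKM with casein, with q = 0.0108 in the authors' deposited table. Slc9a3, the sodium-proton exchanger of the urinary side of the same cells, had 32.5 FPKM with soy and 22.1 FPKM with casein, with q = 0.427 there. Car4, another membrane carbonic anhydrase of the proximal tubule, was the most abundant of the list, at 50.9 FPKM with soy and 40.3 FPKM with casein.

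Marker genes of neighbouring cells differed between the diets as well. Principal cells share the collecting duct with intercalated cells, and 7 of their 11 measured genes were higher with soy, 3 of them at least 1.5-fold. These were the transcription factor gene Elf5 (2.68 FPKM with soy, 0.855 FPKM with casein), the sodium pump regulator gene Fxyd4 (40.8 FPKM with soy, 21.5 FPKM with casein) and the water channel gene Aqp4 (15.9 FPKM with soy, 8.52 FPKM with casein). Aqp2, the vasopressin-regulated water channel, was the most abundant, at 367 FPKM with soy and 259 FPKM with casein. The 11 genes had a median log2 difference of 0.13 and summed to 790 FPKM with soy and 656 FPKM with casein, a ratio of 1.20, while the 9 intercalated cell genes summed to 479 FPKM with soy and 414 FPKM with casein, a ratio of 1.16. When the principal cell median was subtracted, Slc4a1 had a log2 difference of 0.50, under the 1.5-fold limit, and Slc26a7 one of 0.71. The principal cell list includes Scnn1b, a sodium channel subunit gene whose row has status FAIL in the authors' deposited table. Over the other 10 genes the median was 0.32. With 0.32 subtracted, Slc4a1 had 0.31 and Slc26a7 0.52, both under the limit. The 7 measured thick ascending limb genes had a median log2 difference of 0.37, the 6 of the distal convoluted tubule -0.43 and the 10 of the proximal tubule 0.27, while 10 housekeeping genes had -0.03. The distal convoluted tubule median was -0.21 without a limit on low values or with a mean of at least 5 FPKM, and the mean of the proximal tubule genes was 0.06. Whether the amount of collecting duct or of medulla in the samples had a part in the higher Slc4a1 and Slc26a7 was not tested.

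Macrophages can make Atp6v0d2, and macrophage genes were lower with soy. All 9 measured genes of 13 listed names were lower, 8 of them at least 1.5-fold, and they summed to 430.2 FPKM with soy and 798 FPKM with casein. The macrophage gene Cd68 had 7.36 FPKM with soy and 15.0 FPKM with casein, so the ratio of Atp6v0d2 to Cd68 was 5.07 with soy and 2.28 with casein. How much of the Atp6v0d2 RNA came from macrophages was not tested. Of 9 osteoclast genes, 5 were found and 4 measured, 2 of them higher and 2 lower with soy, and their median log2 difference was -0.19, or 0.04 without a limit on low values. The integrin gene Itgb3, at 4.03 FPKM with soy and 6.43 FPKM with casein, was the 1 gene past 1.5-fold. Ctsk, the protease cathepsin K, had 7.09 FPKM with soy and 10.4 FPKM with casein, and Mmp9 was near 0, at 0.287 FPKM with soy and 0.275 FPKM with casein.

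**Figure D3:**
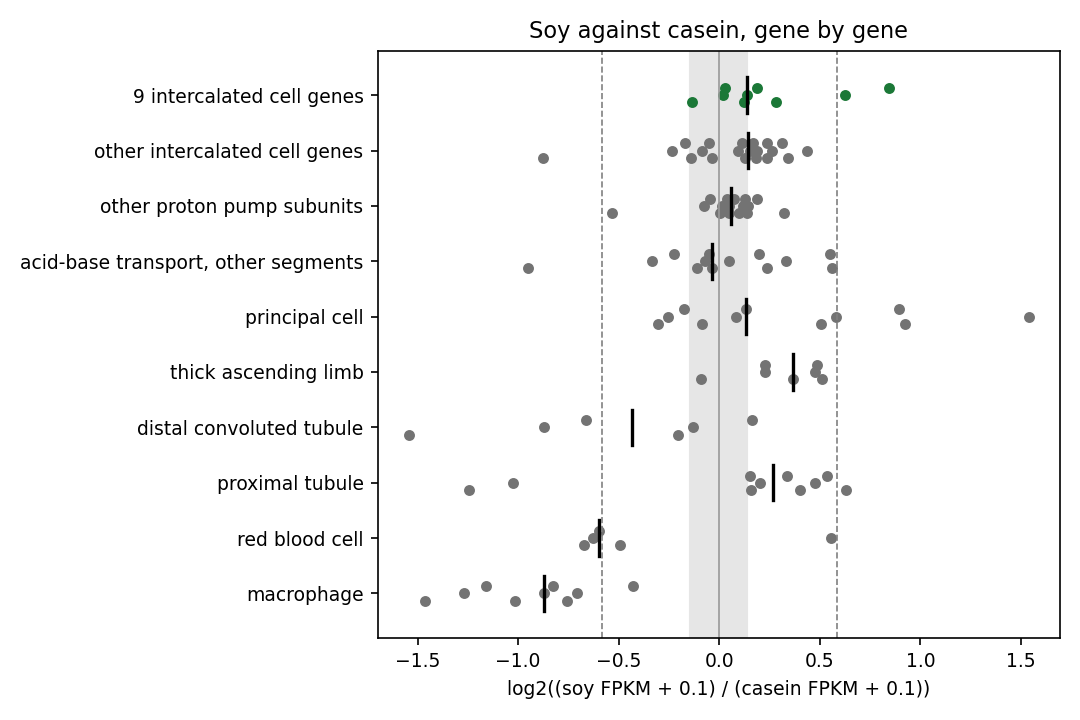
Log2((soy FPKM + 0.1)/(casein FPKM + 0.1)) of each gene that averaged 1 FPKM or more, by gene list, where a point is a gene, the black bar is the list median, the grey band holds the middle 50% of all genes and the dashed lines mark 1.5-fold. The 9 intercalated cell genes centre on 0.14 with Slc26a7 and Slc4a1 to the right of the dashed line, and the macrophage genes all lie to the left of 0.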

How the data were processed

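Kidney RNA libraries of 1 soy and 1 casein sample were compared. The authors deposited a gene table with an FPKM value per diet, per the file headers, and with a p-value and q-value per gene for soy against casein. Bowtie, TopHat and Cufflinks are named without versions in the submitters' processing notes. Of the genome build, the annotation, the use of strand and the number of libraries in the authors' test, none is stated in the labels or headers. The column CON was read as casein and TRT as soy, from the sample titles and from the headings of a second deposited table of transcripts, which holds none of the 9 genes and is otherwise not used here.

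FPKM values were compared as log2 ratios with 0.1 added, for genes that averaged 1 FPKM or more, and counts use a limit of 1.5-fold on that scale. FPKM are not counts, so no count test and no interval was possible. A value of 0 can be a failed estimate. The 9 genes and 13 comparison lists (160 names, 138 found by symbol or RefSeq synonym, assembly GRCr8, used for names only) were chosen with earlier results of these data known. The comparison genes named are those of each list past 1.5-fold, up to 4, with its most abundant gene, except that the red cell, macrophage and osteoclast lists are given as counts with at most 3 genes named. Tcirg1, Aqp6, Kit, Dmrt2, Rhcg, Rhbg, Oxgr1, Atp4a, Slc9a3, Scnn1b, Gpr4, Adcy10 and Sptb were named after their values had been seen. So were the genes set beside members as markers of other cells. Of the proximal tubule, thick ascending limb, distal convoluted tubule and housekeeping lists no genes are named. The counting and the medians were tested on simulated data. Alternatives were pseudocounts of 0.01 and 1, other limits on the mean, 3 ways of centring, rows with status OK, list means, limits of 1.25-fold and 2-fold, and leaving out short RNAs. Principal cell centring with rows of status OK was added after seeing the data. Scripts ran in Python 3.11.15 with pandas 2.3.3 and numpy 2.4.6, and plots were drawn with matplotlib 3.10.9.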

Additional observations from a re-analysis of the deposited data

How the results depend on the processing

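No paired analysis was possible because each diet has 1 library, and for the same reason no replicate could be left out. The count of 2 genes at least 1.5-fold higher became 1 when a mean of at least 5 FPKM was required, which drops Slc26a7, 1 when values were centred on principal cell genes, 0 with a limit of 2-fold, and 0 under principal cell centring with only rows of status OK, an alternative chosen after seeing the data. Under principal cell centring the median log2 difference of the 9 genes was 0.0066, against the reported 0.14. The median was 0.13 to 0.17 under the alternatives without that centring, and the mean in its place was 0.23. Under principal cell centring Atp6v0d2, Atp6v1b1 and Atp6v1g3 changed sign, to -0.01, -0.10 and -0.11. With that centring and only rows of status OK the median was -0.18, and Atp6v0a4, Slc4a9 and Foxi1 changed sign as well. Across the alternatives Slc4a1 ran from 0.31 to 0.66, Slc26a7 from 0.52 to 0.88 and Slc26a4 from -0.45 to -0.10. Of 80 recomputed log2 differences of single genes, 61 stayed within 0.1 of the reported value and on the same side of 1.5-fold, and 19 did not. Part of the 61 was fixed in advance and is no measure of stability. Limits on the mean and the restriction to rows of status OK alone cannot change the log2 difference of a single gene. Of 130 recomputed list values, which are medians except under the alternative of list means, 92 stayed within the same bounds and 38 did not. The count at least 1.5-fold lower was 0 in every alternative that recomputed it. The number of fragments behind these values is unknown, so no counting error can be given for any ratio, that of the low Slc26a7 included.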

Other observations

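Genes that sense or signal acid-base state were measured as well, in a list of 10 of which 9 averaged 1 FPKM or more. With soy, 5 of these had higher values and 4 lower ones. Their median log2 difference was 0.14 and their mean -0.07, of opposite sign. Edn1, the endothelin gene, whose product stimulates proton secretion in the collecting duct, was the 1 gene at least 1.5-fold apart, at 3.08 FPKM with soy and 5.49 FPKM with casein. Its receptor gene Ednrb had 20.8 FPKM with soy and 18.4 FPKM with casein. The proton-sensing receptor gene Gpr4 had 4.51 FPKM with soy and 4.07 FPKM with casein. Adcy10, the bicarbonate-sensing adenylyl cyclase gene, was near 0, at 0.137 FPKM with soy and 0.105 FPKM with casein.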
